A study of Homo sapiens with 28 samples.

Results

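The proximal tubule is the first stretch of the kidney tubule and the tissue from which clear cell renal carcinoma is thought to arise, and 47 genes of its transport, metabolism and identity were followed through 28 xenograft tumours of 2 human renal carcinoma lines. The genes form a named list, and each is represented by the probe set of highest mean signal among those that carry its symbol alone. Of the 47 genes, 44 had such a probe set, among 19775 genes measured so. HNF4A, the nuclear receptor that directs the tubule's differentiation, DPEP1, a membrane dipeptidase, and AMN, the partner of cubilin, had none in the annotation used and are not analysed here. A gene was tested when its signal lay above the median of all signals (89.4) on at least 4 arrays, and 39 of the 44 passed.

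Proximal tubule cells reclaim most of the glucose, amino acids, phosphate, bicarbonate and protein that the glomerulus filters. Their brush border carries sodium-coupled carriers, peptidases and the large endocytic receptors megalin and cubilin, while their basolateral side takes up organic anions, cations and urate for secretion. The same cells make creatine precursors and glucose, activate and conjugate organic acids, and break down amino acids. Nuclear receptors of the HNF4 family and the paired-box factors PAX8 and PAX2 are known regulators of this programme. Renal carcinomas keep PAX8 and lose much of the rest to a varying degree.

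The tumours were grown under the skin of female athymic nude/beige mice that were 6 to 8 weeks old at injection. 786-O and A498 are established lines from clear cell carcinomas that both lack a working VHL tumour suppressor, and each is 1 line, so that a line here is not a sample of patients. Both drugs, sorafenib (80 mg/kg) and sunitinib (53.6 mg/kg), block VEGF and PDGF receptor kinases, and sorafenib also acts on RAF. They were given by gavage on 6 days a week from a tumour size of 12 mm. Resistant tumours are those so labelled, which were treated and grew on towards the permitted 20 mm, and untreated tumours had no drug. Sizes of single tumours are not in the labels, and whether every tumour had a separate mouse is not stated there either. The p-values then cover only the spread between these samples, which may be technical. The sorafenib arm of 786-O holds 5 untreated tumours and 5 resistant ones. Its sunitinib arm holds 5 untreated tumours and 4 resistant ones. The A498 tumours, 4 untreated and 5 resistant, come from its sorafenib arm. Titles begin with the number 33 in the 786-O sorafenib arm and 35 in all others, with no stated meaning, so this number and the arm cannot be told apart.

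RNA of whole frozen tumour had been measured on Affymetrix HG-U133 Plus 2.0 arrays, and values below are probe set signals, listed from the lowest to the highest tumour. The arrays were scaled to the same trimmed mean, within-group correlations across probe sets ran from 0.949 to 0.971, and the 3-prime minus 5-prime difference of the ACTB control ran from 0.056 to 1.03 (log2), highest in untreated replicate 5 of the 786-O sorafenib arm. A difference is that of mean log2(signal + 16), given with its standard error (SE), and the added 16 makes changes of dim genes look smaller. Called means a limma adjusted p under 0.05 over all 13808 genes tested. A lower signal in a whole tumour can come from fewer cells that hold the RNA or from less RNA per cell, and these cannot be told apart. The tumours also held mouse cells, whose RNA can bind some human probe sets.

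Clear cell identity was measurable in both lines. PAX8 was bright in every tumour. Of 8 measured genes typical of renal carcinoma (PAX8 and PAX2 among them, with CA9, keratins and others) 6 or 7 lay above the limit in all tumours of a group. Of the 44 measured members, 22 or 23 lay above the limit in all untreated 786-O tumours of an arm and 14 in none of them, whereas 31 did so in all untreated A498 tumours and 6 in none. The 5 members too dim to test were SLC5A12, a lactate carrier, SLC34A1, the main phosphate carrier, FBP1, the gluconeogenic bisphosphatase, DPYS, a pyrimidine-degrading enzyme, and CYP4A11, a fatty acid hydroxylase. SLC5A12 and DPYS passed the limit on 0 arrays, FBP1 and CYP4A11 on 1 array and SLC34A1 on 3. Dim values are no proof that a gene is silent, since no detection calls were used here.

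Promoter letters are shown for PDZK1, lower in all 3 arms, and AGXT2, lower with sunitinib, because both hold a letter pattern of HNF4, a background regulator of this tissue. RefSeq promoter windows (GRCh38.p14, 250 bases before to 50 after a start) existed for 35 of the 44 measured members, 51 windows in all. Each was searched on both strands for the exact letters CAAAGTCCA. They stood in 2 of the 35 genes (5.71%; by window 5.88%), PDZK1 and AGXT2, against 0.472% of all 27305 genes with a window (by window 0.384%). The windows are printed 5′ to 3′ on the gene's strand, which is the minus strand in both, and capitals mark the match.
PDZK1, chr1:145707319-145707618: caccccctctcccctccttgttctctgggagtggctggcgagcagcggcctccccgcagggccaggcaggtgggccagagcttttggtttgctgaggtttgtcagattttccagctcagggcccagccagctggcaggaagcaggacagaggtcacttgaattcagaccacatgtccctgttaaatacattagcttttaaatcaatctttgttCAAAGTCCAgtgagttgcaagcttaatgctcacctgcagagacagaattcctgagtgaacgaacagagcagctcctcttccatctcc
AGXT2, chr5:35047900-35048199: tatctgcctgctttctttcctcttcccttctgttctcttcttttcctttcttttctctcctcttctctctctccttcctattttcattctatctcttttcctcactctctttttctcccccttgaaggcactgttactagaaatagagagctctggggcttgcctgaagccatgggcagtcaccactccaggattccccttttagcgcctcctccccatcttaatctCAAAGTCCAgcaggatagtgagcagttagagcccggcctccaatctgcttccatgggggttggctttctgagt
The centre of the match lay 33 bases before the start in this window of PDZK1 and 19 in AGXT2. A match is a description of letters, and binding was not measured.

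In resistant 786-O tumours of the sorafenib arm the members fell mainly in organic anion transport, brush border scaffolding and amino acid handling. Peptidases, gluconeogenic enzymes and the endocytic receptors had no called gene. Among these, ANPEP, PCK1 and LRP2 were under the limit in every 786-O tumour, so a fall in them could hardly be seen. Of the 39 tested members 15 were lower (14 besides SLC16A9, which was under the limit in every 786-O tumour) and 1 was higher, where 9.18% of all genes tested were lower and 5.97% higher. The median difference was -0.49 over the tested members and -0.36 over all 44 measured, against -0.05 over all genes tested. Leaving out each tumour in turn left between 11 and 15 members lower.

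ACSM2A, a mitochondrial acyl-CoA synthetase that activates benzoate and similar acids for conjugation, had signals of 509.8, 621, 714, 1179.9 and 1381 in untreated and of 2.30, 4.09, 66.3, 126 and 147 in resistant tumours of this arm. All resistant tumours lay below all untreated ones, and 3 of the 5 lay below the limit. The difference was -3.83 ± 0.47 (adjusted p = 3.15e-06), and over the alternatives it ran from -4.81 to -2.42. ACSM2B, its near-identical neighbour on chromosome 16, was dim in 786-O and had a difference of -1.01 ± 0.38 (adjusted p = 0.0735), and how far either probe set binds the RNA of the other gene was not tested. GLYAT, which joins glycine to the activated acids, ran from 46.4 to 79.9 and from 43.9 to 99.5, around or below the limit (-0.03, not called).

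Among enzymes of amino acid and creatine metabolism 2 of 8 tested were lower. ALDH8A1, an aldehyde dehydrogenase of kidney and liver, had signals of 293, 378, 436, 556 and 674 in untreated and 27.1, 31.8, 54.0, 78.2 and 82.8 in resistant tumours. Every resistant tumour was below the limit and every untreated one above it, with a difference of -2.80 ± 0.36 (adjusted p = 6.43e-06). GATM, which makes the precursor of creatine, went from 511, 525, 580.2, 654 and 893 to 141, 143, 143, 200.4 and 213. These groups did not overlap either, and the difference was -1.81 ± 0.21 (adjusted p = 2.12e-06), with another probe set of GATM at -2.28 (adjusted p over all probe sets = 1.34e-06). The remaining GATM probe sets tested were at -0.22 and -0.10, not called (adjusted p over all probe sets = 0.756 and 0.864). AGXT2, a mitochondrial aminotransferase, was at -0.81 ± 0.29 (adjusted p = 0.0568) and DDC, which makes dopamine in the tubule, at -0.88 ± 0.40 (adjusted p = 0.147), both short of the threshold.

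Transport proteins of the brush border and basolateral side held 5 lower members of 7. PDZK1, the scaffold that anchors carriers in the brush border, had signals of 6592, 6912, 7765, 8033 and 8697 and then 594, 1157, 1997, 2464 and 2708. It stayed bright in every tumour, yet the groups were apart, with a difference of -2.27 ± 0.30 (adjusted p = 7.73e-06). SLC3A1, the heavy subunit of the cystine carrier, went from 552, 780.1, 873, 1369 and 1427 to 159, 201, 240.3, 329 and 385, again without overlap (-1.84 ± 0.24, adjusted p = 6.05e-06). A second probe set of SLC3A1 gave -0.81 (adjusted p over all probe sets = 0.147), so this call rests on 1 probe set. SLC7A9, the light subunit of the same carrier, was at 0.06 and not called. Smaller falls were called in SLC1A1, the glutamate carrier (-0.60 ± 0.17), and SLC4A4, the basolateral bicarbonate carrier (-0.47 ± 0.10), both of them bright in every tumour. No other probe set of either was called. The second of SLC1A1 gave -0.36 and those of SLC4A4 -0.56 to -0.10 (adjusted p over all probe sets = 0.348, and 0.109 or more). With the mean of its probe sets SLC4A4 was not called (adjusted p = 0.0823). CLTRN, or collectrin, which brings neutral amino acid carriers to the brush border, was dim in 786-O and called lower (-0.93 ± 0.32, adjusted p = 0.0478). That call was lost on leaving out 8 of 10 tumours in turn, all but untreated replicates 1 and 5, with adjusted p up to 0.139. SLC1A1 had an adjusted p of 0.0564 without resistant replicate 4.

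Of 6 organic ion and urate carriers 3 were called lower, SLC16A9 among them with signals all under the limit, and 1 higher. SLC17A3, which exports urate and organic anions into the urine, had signals of 614, 673, 779.7, 789 and 863 in untreated and 18.6, 94.4, 116, 231 and 237 in resistant tumours, with a difference of -2.59 ± 0.43 (adjusted p = 0.000142). Its relative SLC17A1, a neighbour on chromosome 6, went from 146, 184, 224, 247 and 259 to 12.4, 31.5, 55.9, 70.1 and 83.8 (-1.88 ± 0.26, adjusted p = 1.66e-05), below the limit in every resistant tumour. In neither gene did the groups overlap, and a second probe set of SLC17A1 gave -1.57 (adjusted p over all probe sets = 2.96e-04). SLC16A9, a carrier of the monocarboxylate family, was under the limit throughout 786-O, at 9.95, 63.2, 69.6, 70.6 and 85.5 and then 5.25, 8.06, 13.1, 15 and 36.8, which overlap (-1.20 ± 0.34, adjusted p = 0.0177). It was tested because of its A498 signals, so this difference lies among dim values. Without untreated replicate 5 its adjusted p was 0.0551. SLC2A9, a urate carrier of the glucose transporter family, rose by 0.68 ± 0.22 (adjusted p = 0.0385), a call lost without any 1 of 7 of the 10 tumours (untreated replicates 2 to 5 and resistant replicates 2 to 4, adjusted p up to 0.116). With the mean of its probe sets it was at 0.16 (adjusted p = 0.713). SLC22A2, the organic cation uptake carrier, ran from 44.4 to 139 in untreated and from 4.89 to 30.0 in resistant tumours, without overlap, and was not called in the fit over all 28 arrays (-1.93 ± 0.71, adjusted p = 0.0668). It was called with array weights (adjusted p = 0.0478) or with the arrays of this arm alone (adjusted p = 0.00255). Its signals passed the limit in untreated tumours alone, through which it entered the test.

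CLDN2, the claudin that lets cations and water pass between tubule cells, had signals of 966, 983, 1029.8, 1077 and 1110.5 and then 65.4, 151, 162, 319 and 409. The untreated tumours lay close together and far above the resistant ones (-2.37 ± 0.30, adjusted p = 4.83e-06). AQP1, the water channel, spread widely in both groups and was at -1.23 ± 0.43 (adjusted p = 0.0548). PKHD1, which encodes fibrocystin of the cilium, went from 141, 147, 161, 221 and 274 to 36.8, 51.0, 58.5, 67.3 and 89.5 without overlap (-1.42 ± 0.33, adjusted p = 0.00385). Over all arms PKHD1 passed the limit almost only in untreated tumours, which brought it into the test. HAVCR1, known as kidney injury molecule 1 (KIM-1) and raised in injured tubules and renal carcinoma, was called lower (-0.92 ± 0.27, adjusted p = 0.0233), with overlap between the groups. This call was lost without untreated replicate 2, 3 or 4 or resistant replicate 4 or 5 (adjusted p up to 0.0716).

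The paired-box factors differed from each other. PAX8 had signals of 3291, 3707, 4473, 4709 and 4887 in untreated and 4334, 4367, 4640.2, 5047 and 5262 in resistant tumours (0.18 ± 0.10, adjusted p = 0.265), although 2 of its other 7 probe sets were higher (0.78 and 0.46, adjusted p over all probe sets = 0.00181 and 0.0467). PAX2 went from 179, 190.4, 202, 247 and 265 to 65.4, 93.0, 100.2, 126 and 206, with overlap, and was called lower (-0.86 ± 0.29, adjusted p = 0.0418). Leaving out 1 tumour ended the PAX2 call for 8 of 10 tumours, all but untreated replicate 2 and resistant replicate 3 (adjusted p up to 0.12), and another probe set gave -0.26. Brush border peptidases had no called member, with ANPEP, aminopeptidase N, at 0.07 and MME, neprilysin, at 0.31 ± 0.16 (adjusted p = 0.203), where a second probe set of MME was higher (0.71, adjusted p over all probe sets = 0.00943). PCK1 and PCK2, the cytosolic and mitochondrial PEP carboxykinases, KHK, the fructokinase, LRP2 and CUBN, which encode megalin and cubilin, DIO1, which activates thyroid hormone, and MIOX, which breaks down inositol, ranged from -0.24 (CUBN) to 0.57 (DIO1) with none called. ASS1, which makes argininosuccinate, BHMT, which remethylates homocysteine, BBOX1 of carnitine synthesis, PRODH2 of hydroxyproline breakdown, SLC13A3, a dicarboxylate carrier, and SLC47A1, an organic cation exporter, lay between -0.49 (PRODH2) and 0.04 (BHMT), also with none called. ANPEP, PCK1, LRP2, DIO1, BHMT, BBOX1 and SLC47A1 were under the limit in every 786-O tumour, so their differences lie among dim values.

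Genes used as markers of stroma moved in the same arm, and whether their signals came from mouse cells or from tumour cells was not tested. Of 7 tested fibroblast and pericyte genes 4 were lower, led by the collagen genes COL3A1 (-1.93 ± 0.30), COL1A2 (-1.83 ± 0.27) and COL1A1 (-1.64 ± 0.34), and the summed signal of all 9 ran from 7241 to 10699 in untreated and from 2836 to 4781 in resistant tumours. Endothelial genes were near or below the limit, with 5 of 6 above it in no tumour of either group, and the 6 macrophage genes summed to 389 to 715 and then 300.1 to 499, with AIF1 lower (-2.33 ± 0.67). The summed signal of the 44 members was 38129 to 51168 in untreated and 28649 to 33382 in resistant tumours. The part of the stroma in the members' fall was not tested. Without both arrays of highest ACTB difference, untreated replicate 5 and resistant replicate 4, 12 members stayed lower.

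**Figure D1:**
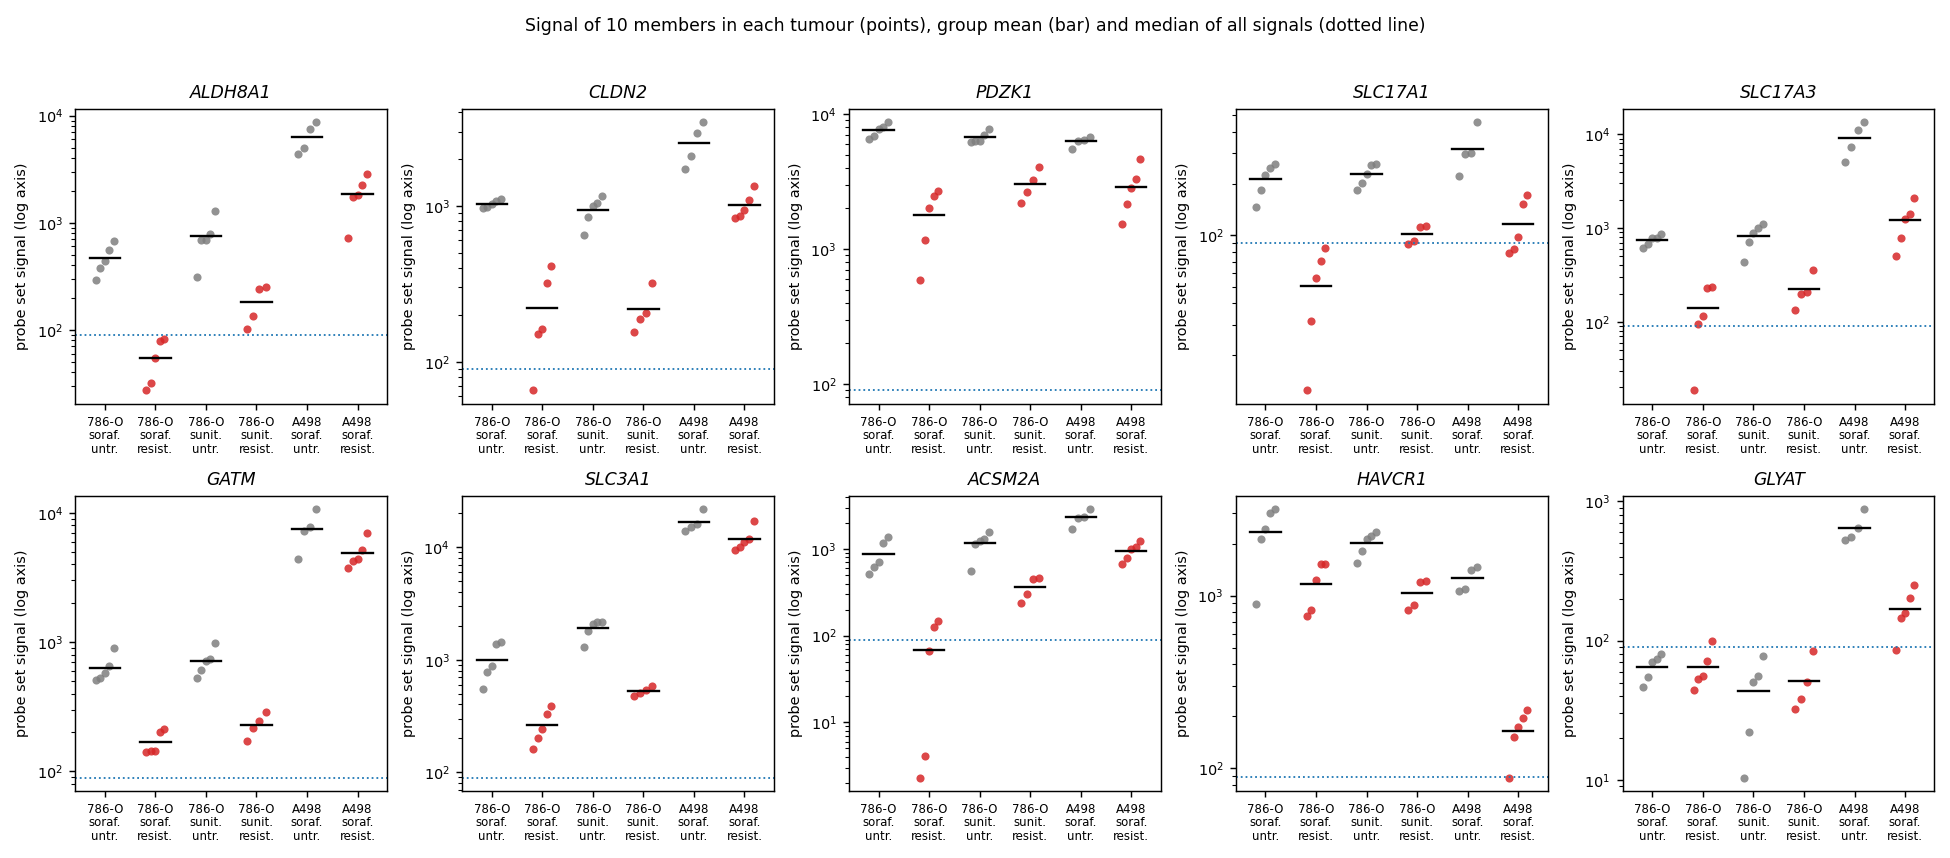
Signal of 10 members in each of the 28 tumours, on a log axis, with grey points for untreated and red for resistant tumours, a bar for the group mean and a dotted line at the median of all signals (89.4). In the upper row every resistant 786-O tumour of the sorafenib arm lies below every untreated one, and in the last pair, A498, the resistant points of HAVCR1 and GLYAT lie far below the untreated ones.

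Resistant 786-O tumours of the sunitinib arm showed falls in claudin 2, ALDH8A1, an anion exporter and the heavy subunit of the cystine carrier. Fibrocystin fell too, but its gene entered the test through untreated tumours. Of the 39 tested members 10 were lower and 0 higher, where 2.84% of all genes tested were lower and 2.22% higher, and at an unadjusted p under 0.05 the counts were 15 and 2 (10.3% and 8.39% of all genes). The 10 include PKHD1 and ACSM2B, whose signals passed the limit in no resistant tumour of this arm. The median was -0.26 over the tested members and -0.20 over all measured, against -0.01 over all genes tested. Without resistant replicate 3 or 4 the count of lower members was 6, and over all tumours left out in turn it ran from 6 to 10.

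PKHD1 showed the largest fall here, from 97.5, 131, 181, 222 and 292 in untreated to 1.41, 27.2, 53.1 and 56.1 in resistant tumours (-2.10 ± 0.35, adjusted p = 0.00114). All 4 resistant tumours were below the limit and below all untreated ones, and PKHD1 had entered the test through untreated tumours. CLDN2 went from 653, 848, 1001, 1045 and 1164 to 155, 187, 205 and 322, also without overlap (-2.06 ± 0.32, adjusted p = 0.000982). HAVCR1 was at -0.96 ± 0.29, also without overlap, but just short of the threshold (adjusted p = 0.0548). It was called lower in 4 alternatives, array weights and the compared arrays alone among them.

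Among the enzymes, ALDH8A1 had signals of 309, 687, 688, 788 and 1294 and then 102, 135, 242 and 251 (-1.91 ± 0.38, adjusted p = 0.00512). GATM fell from 531, 609.8, 712, 746 and 977 to 171, 215, 245 and 287 (-1.57 ± 0.23, adjusted p = 0.000442), again on a further probe set too (-1.95, adjusted p over all probe sets = 3.89e-04). The remaining GATM probe sets tested were at -1.17 and -0.40 (adjusted p over all probe sets = 0.0281 and 0.648). Neither enzyme's groups overlapped. AGXT2, which degrades methylated arginines, went from 184, 222, 251, 361 and 481 to 72.3, 78.3, 79.6 and 98.8, with every resistant tumour near the limit (-1.61 ± 0.31, adjusted p = 0.00362). ACSM2B was called at -1.38 ± 0.40 (adjusted p = 0.0459), from 63.1, 75.5, 77.3, 94.4 and 156 to 10.8, 11.4, 35.8 and 55.1, and the call was lost without any 1 of 8 of the 9 tumours, all but resistant replicate 2 (adjusted p up to 0.146). ACSM2B passed the limit on 4 arrays, the least allowed, with untreated tumours of this arm but no resistant one among them. ACSM2A was at -1.61 ± 0.49 (adjusted p = 0.0582), short of the threshold although its groups did not overlap.

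Among 7 transport proteins 2 were lower, and among 6 organic ion carriers 2. SLC3A1 had signals of 1285, 1819.9, 2081, 2144 and 2168 in untreated and 477, 506, 534 and 583 in resistant tumours (-1.80 ± 0.25, adjusted p = 0.000326), and its second probe set was lower as well (-1.66, adjusted p over all probe sets = 0.0145). The 4 resistant tumours lay within a narrow band well under the untreated ones. PDZK1 went from 6218, 6346, 6366, 7011 and 7789 to 2208, 2629, 3256 and 4065 (-1.18 ± 0.32, adjusted p = 0.0291). SLC17A3 went from 437, 703, 883, 995 and 1104 to 134, 199, 211 and 359.5 (-1.81 ± 0.46, adjusted p = 0.0201). SLC17A1 went from 183, 202, 226, 258 and 261 to 89.1, 92.8, 111 and 113 (-1.03 ± 0.28, adjusted p = 0.0292). In these 3 the groups did not overlap, but each call was lost on leaving out some single tumours. PDZK1 lost its call without untreated replicate 1 or 4 or resistant replicate 2, 3 or 4 (adjusted p up to 0.117). SLC17A3 lost it without untreated replicate 1 or resistant replicate 2, 3 or 4 (up to 0.0708). SLC17A1 lost it without untreated replicate 2, 3 or 4 or resistant replicate 2, 3 or 4 (up to 0.093). A second probe set of SLC17A1 was at -0.90 and not called (adjusted p over all probe sets = 0.082).

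PAX8 and PAX2 were not called with sunitinib. PAX8 had signals of 3535, 3686, 3806, 4016 and 4058 and 3444, 3582, 3771 and 3881 (-0.06), with 1 other probe set lower (-1.0, adjusted p over all probe sets = 0.0448). PAX2 had 110.2, 113, 167, 179 and 214 and 38.5, 149, 158 and 183 (-0.34, adjusted p = 0.606), where resistant replicate 4 stood far below the others. SLC4A4 was at -0.14 by the probe set used, while a second one was lower (-0.79, adjusted p over all probe sets = 0.0121). Among the members not called, BBOX1 had the highest difference (1.11 ± 0.44, adjusted p = 0.156), all within signals under the limit. Of the fibroblast and pericyte genes 1 of 7 was lower here (RGS5 -0.99 ± 0.24), with summed signals of 4010.5 to 8228 and 3304 to 7332. The difference between the arms' responses was itself called in 1 of these 7, COL1A1 (-2.29 ± 0.50, adjusted p = 0.0255). The untreated tumours of the sorafenib arm already stood higher in 4 of the 7 at an unadjusted p under 0.05, with a median over the 7 of 0.55. The members summed to 42491 to 55388 in untreated and 34454 to 40253 in resistant tumours.

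In resistant A498 tumours of the sorafenib arm the falls were in HAVCR1, organic ion carriers, collectrin, the glycine conjugating enzyme, claudin 2 and the brush border scaffold. Of the 39 tested members 10 were lower and 1 higher, where 3.4% of all genes tested were lower and 2.93% higher. The median was -0.63 over the tested members and -0.61 over all measured, against 0.03 over all genes tested. The count of lower members was 6 without untreated replicate 1 and 14 without untreated replicate 3. The summed signal of the members ran from 97945 to 154709.5 in untreated and from 56654 to 94044 in resistant tumours.

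HAVCR1 had signals of 1063, 1099, 1409 and 1466 in untreated and 88.2, 152, 173, 194 and 216 in resistant tumours. The groups lay far apart, and the difference of -2.85 ± 0.29 (adjusted p = 1.62e-06) is a 7.23-fold fall. Leaving out any of the 9 tumours kept it called, with adjusted p up to 2.6e-05. PKHD1, which had fallen in both 786-O arms, was at -0.91 ± 0.35 here (adjusted p = 0.121).

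Organic ion carriers had 3 lower members of 6. SLC17A3 was among the brightest members in untreated A498, at 5065, 7254, 11208 and 13428, and went to 501, 793, 1258, 1415 and 2109 (-2.97 ± 0.46, adjusted p = 0.000312). SLC17A1, much dimmer, went from 222, 298, 303 and 456 to 78.2, 82.4, 97.1, 152 and 171 (-1.36 ± 0.28, adjusted p = 0.00437). Both groups were apart in both genes, while a second probe set of SLC17A1 was at -0.94 and not called (adjusted p over all probe sets = 0.0635). SLC22A2, which takes up organic cations from the blood, had untreated signals of 15.1, 208, 328 and 611 and resistant ones of 5.68, 8.39, 10.2, 14.8 and 23.0 (-2.82 ± 0.75, adjusted p = 0.0239). All resistant tumours were far below the limit, as was 1 untreated tumour, and the call was lost without untreated replicate 1, 2 or 4 (adjusted p up to 0.115). SLC22A2 passed the limit in no resistant tumour of any arm, so untreated tumours alone brought it into the test. SLC47A1, which passes organic cations on into the urine, was at -0.92 ± 0.32 (adjusted p = 0.09).

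CLTRN went from 1235, 1418, 2025 and 3702 in untreated to 336, 428, 491, 496 and 677 in resistant tumours (-1.97 ± 0.33, adjusted p = 0.000872). PDZK1 went from 5517, 6323, 6457 and 6805 to 1534, 2159, 2822, 3309 and 4670.1 (-1.21 ± 0.32, adjusted p = 0.0222). Neither overlapped, but PDZK1 lost its call without untreated replicate 1, 2 or 4 or resistant replicate 2 or 3 (adjusted p up to 0.0731). The cystine carrier subunits stayed bright and were not called, SLC3A1 at -0.50 ± 0.25 (adjusted p = 0.261) and SLC7A9 at -0.15. CLDN2 went from 1733, 2083, 2935 and 3441 to 833, 857, 943, 1084 and 1345 (-1.29 ± 0.32, adjusted p = 0.0153), and was just short of the threshold without untreated replicate 1 (adjusted p = 0.0556).

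Of the enzymes, GLYAT had signals of 525, 552, 645 and 877 and then 86.2, 145, 158, 204 and 251 (-1.89 ± 0.31, adjusted p = 0.000577), and its other 2 probe sets were lower too (-2.97 and -1.39). ALDH8A1 went from 4359, 4972, 7535 and 8680.3 to 726, 1729, 1803, 2275 and 2836 (-1.83 ± 0.38, adjusted p = 0.00511). BHMT, which remethylates homocysteine with betaine, went from 696, 727, 1174 and 1543 to 369.6, 372, 419, 555 and 699 (-1.04 ± 0.31, adjusted p = 0.041). GLYAT and ALDH8A1 showed no overlap, whereas BHMT overlapped slightly and lost its call for 6 of 9 tumours left out, all but untreated replicates 2 and 3 and resistant replicate 5 (adjusted p up to 0.166). DDC was at -1.30 ± 0.42 (adjusted p = 0.0682) by the probe set used and was lower by its second one (-1.28, adjusted p over all probe sets = 0.00798). GATM was at -0.58 ± 0.23 (adjusted p = 0.128).

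The only member called higher was PCK2, the mitochondrial PEP carboxykinase (0.34 ± 0.10, adjusted p = 0.0456). That call was lost without any 1 of 7 of the 9 tumours, all but resistant replicates 1 and 5 (adjusted p up to 0.126). PAX8 had signals of 2443, 2485, 2519 and 2645 and 1915, 2245, 2271, 2347 and 2856 (-0.13). PAX2 had 407, 447, 468 and 668 and 278, 338, 407, 451 and 526 (-0.31), so neither factor was called in A498. By limma none of the 7 tested fibroblast and pericyte genes was called (2 higher and 0 lower at an unadjusted p under 0.05), and the summed signal of all 9 ran from 6790.1 to 16186 in untreated and from 10464 to 24295 in resistant tumours.

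**Figure D2:**
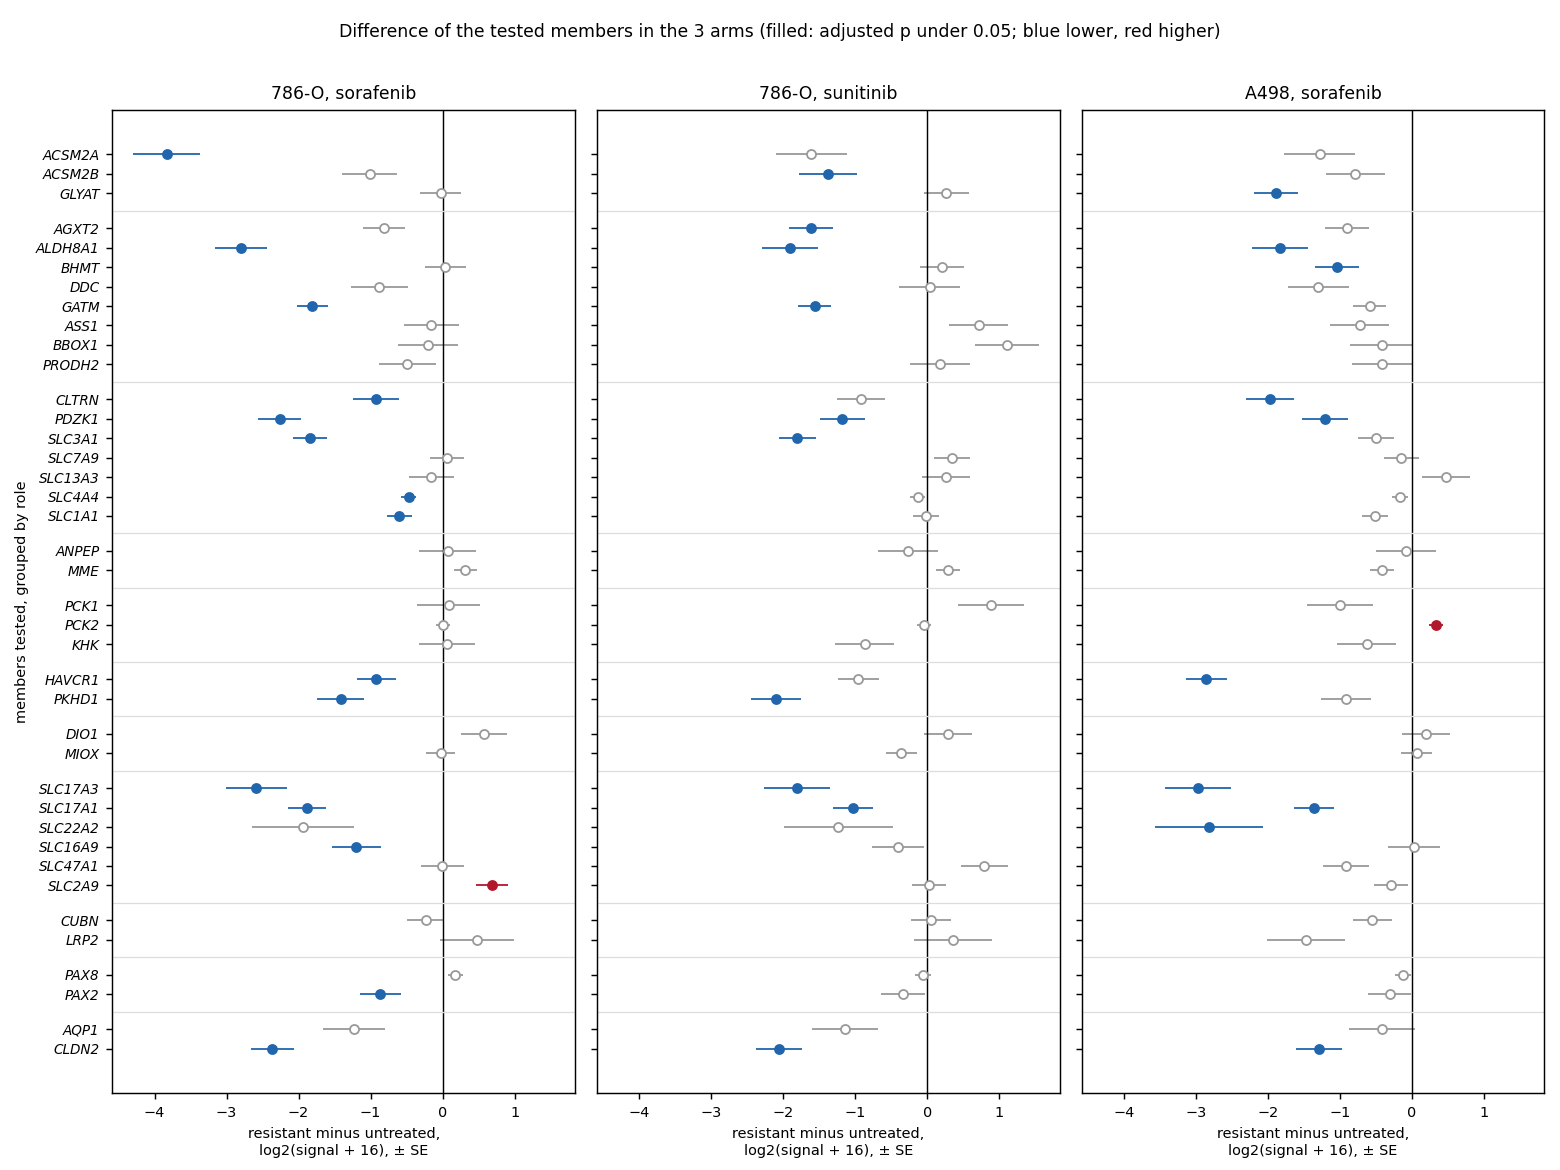
Difference of the 39 tested members between resistant and untreated tumours in each arm, as log2(signal + 16) with bars of 1 SE, ordered by role, with filled points for adjusted p under 0.05 (blue lower, red higher). ALDH8A1, PDZK1, SLC17A3, SLC17A1 and CLDN2 are filled blue in all 3 panels, HAVCR1 lies farthest left among the injury and cilium genes in A498, and the endocytic receptors CUBN and LRP2 have open points in each panel.

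The 3 arms use different tumours, so their calls can be set side by side. Of the 39 tested members 20 were lower in at least 1 arm, 10 of them in exactly 1, 5 in exactly 2 and 5 in all 3. Over all genes tested 12.7% were lower in at least 1 arm, 10.2% in exactly 1, 2.23% in exactly 2 and 0.253% in all 3, against 51.3%, 25.6%, 12.8% and 12.8% of the tested members. The 5 lower in all arms were ALDH8A1 (-2.80, -1.91 and -1.83 in the order 786-O sorafenib, 786-O sunitinib and A498 sorafenib), CLDN2 (-2.37, -2.06 and -1.29), PDZK1 (-2.27, -1.18 and -1.21), SLC17A1 (-1.88, -1.03 and -1.36) and SLC17A3 (-2.59, -1.81 and -2.97). They hold an aldehyde dehydrogenase, a paracellular channel, the brush border scaffold and both urate and anion exporters of the SLC17 family. The second probe set of SLC17A1 was lower at this threshold with sorafenib in 786-O alone. In all 3 arms 18 members had a difference below 0, and DIO1 alone had one above 0 (0.57, 0.28 and 0.20, none called). The count of 5 fell to 2, ALDH8A1 and CLDN2, without resistant replicate 2, 3 or 4 of the sunitinib arm. It was 3 without untreated replicate 1 or 4 of the sunitinib arm or untreated replicate 1 of A498, and 7 without untreated replicate 3 of A498.

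Of the members lower with sorafenib in 786-O, 8 were also lower with sunitinib, which is 53.3% of the 15 and 80.0% of the 10. They were the 5 above without exception, and GATM, SLC3A1 and PKHD1, the last of which entered the test through untreated tumours. Against A498 with sorafenib 7 were shared (46.7% and 70.0%), the 5 with CLTRN and HAVCR1, and the sunitinib arm shared 5 with A498 (50% of each). Over all genes tested the same shares were 17.0% and 55.1% for the 786-O arms, 11.9% and 32.1% for sorafenib in both lines, and 11.7% and 9.79% for sunitinib against A498. The difference between the sorafenib and the sunitinib response of 786-O was itself called in 0 members in either direction, where 0.507% of all genes were called lower and 0.442% higher. At an unadjusted p under 0.05 it was lower in 6 members and higher in 0, where 7.98% of all genes were lower and 6.41% higher. The largest was ACSM2A at -2.22 ± 0.68 (adjusted p = 0.114), and PAX2, called in the sorafenib arm alone, was at -0.53 ± 0.42 (adjusted p = 0.598). Untreated 786-O tumours of both arms were compared as a control, and limma called 0 members (1 higher and 1 lower at an unadjusted p under 0.05, against 8.28% and 4.89% of all genes), where 0.21% of all genes were called higher and 0.0652% lower in the sorafenib arm. SLC3A1 came nearest, at -0.97 ± 0.24 (adjusted p = 0.0713).

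The sorafenib response differed between the lines in 5 members by the test of the difference itself, 3 higher and 2 lower in A498, where 3.02% of all genes were called higher and 2.17% lower. ACSM2A fell more in 786-O, with a difference between the lines of 2.55 ± 0.68 (adjusted p = 0.028). SLC3A1 (1.35 ± 0.34, adjusted p = 0.0227) and GATM (1.22 ± 0.31, adjusted p = 0.0216) also fell more in 786-O. HAVCR1 fell more in A498 (-1.94 ± 0.40, adjusted p = 0.00609), as did GLYAT (-1.86 ± 0.42, adjusted p = 0.0114), whose 786-O signals lay around or below the limit. Some of these rest on the probe set. When probe sets ending in _x_at, _s_at or _a_at were left out, SLC3A1 was read by its second probe set. Its difference between the lines was then -0.06 (adjusted p = 0.969). With the mean of all probe sets this difference was not called for SLC3A1 (adjusted p = 0.311) or GATM (adjusted p = 0.785). ACSM2A was not called without untreated replicate 1 of 786-O or untreated replicate 2 of A498 (adjusted p up to 0.0584), nor with a pseudocount of 1 or the compared arrays alone (up to 0.0594). HAVCR1 and GLYAT kept their calls without any of the 19 tumours (adjusted p up to 0.0159 and 0.0301). The median over the members was -0.16, against 0.07 over all genes, and with each array centred on its median the values were -0.34 and -0.12.

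**Figure D3:**
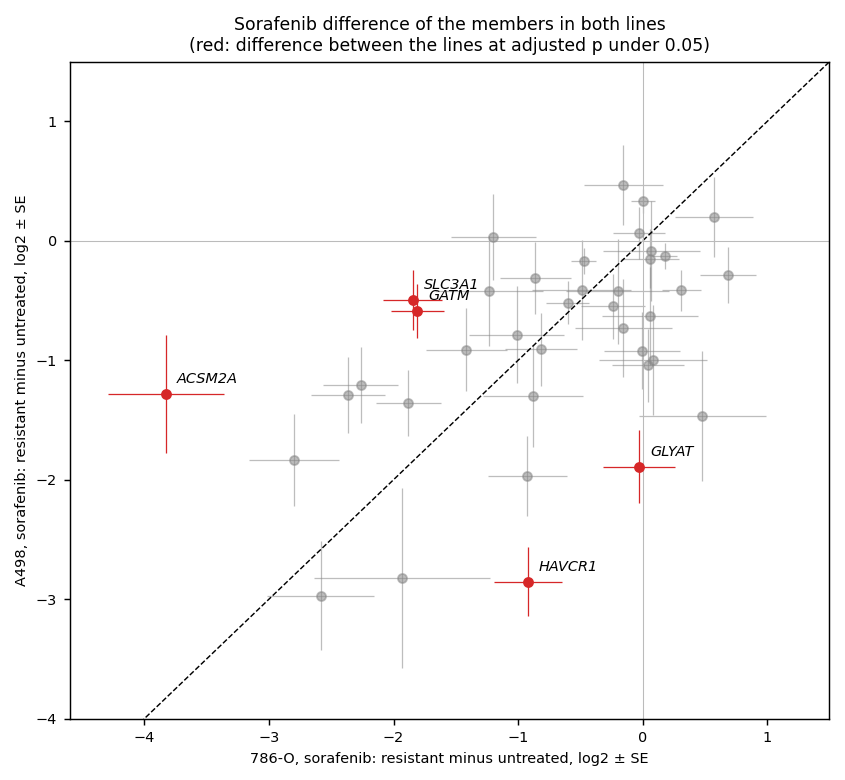
Sorafenib difference of the 39 tested members in 786-O (x axis) and A498 (y axis), log2(signal + 16) with bars of 1 SE, and red for the 5 members whose difference between the lines was called. ACSM2A, SLC3A1 and GATM lie above the dashed line of equal response, HAVCR1 and GLYAT below it.

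The untreated lines differed in most members. Among those above the limit on at least 4 of the 786-O arrays, AGXT2, SLC7A9, KHK and SLC17A3 had the largest differences, all higher in A498. Untreated A498 was set against the 5 untreated 786-O tumours of the sunitinib arm, whose titles begin with the same number. Of the 39 tested members 25 (64.1%) were higher and 6 (15.4%) lower in A498, where 27.3% of all genes tested were higher and 30.6% lower. The median was 1.88 over the tested members and 1.22 over all 44 measured, against -0.06 over all genes. However, 8 tested members (ANPEP, BBOX1, BHMT, DIO1, LRP2, PCK1, SLC16A9 and SLC47A1) lay above the limit in no 786-O tumour and so entered the test through A498, where all 8 were higher. Among the other 31 members 17 were higher. Of these, DDC, CLTRN and GLYAT passed the limit on fewer than 4 of the 786-O arrays, so they too entered the test through A498.

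DDC, the dopa decarboxylase, had signals of 24.8, 48.7, 50.7, 60.1 and 133 in untreated 786-O and 3495, 3686, 5761 and 7832 in untreated A498 (6.09 ± 0.42). CLTRN had 45.5, 55.1, 68.3, 88.3 and 94.1 and 1235, 1418, 2025 and 3702 (4.51 ± 0.33). DDC and CLTRN entered the test through A498, so no p is given for them here. Most of the 786-O tumours lay below the limit in both genes, so the size of the difference depends on the constant added, and over the alternatives it ran from 5.34 to 6.46 for DDC and from 3.89 to 4.79 for CLTRN. AGXT2 had 184, 222, 251, 361 and 481 and 3491, 3673, 5072 and 6509.5 (3.93 ± 0.31, adjusted p = 4.83e-11). SLC7A9, the light subunit of the cystine carrier, had 42.8, 56.5, 76.6, 91.0 and 101 and 1043, 1068, 1153 and 1385 (3.75 ± 0.25, adjusted p = 1.91e-12), and SLC3A1, the heavy one, was higher by 3.13 ± 0.25. Both subunits thus stood higher in A498.

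For 9 members every untreated 786-O tumour of this arm lay below the limit, so that no difference or p is given for them here. BBOX1, the last enzyme of carnitine synthesis, had 2.18, 3.08, 5.61, 6.42 and 37.8 in 786-O and 2284, 4088, 5708 and 6621 in A498, whose mean was 52.3 times the limit. ANPEP, or aminopeptidase N of the brush border, had 2.90, 5.90, 35.5, 41.2 and 44.7 and 5483, 6082, 6288 and 7191, a mean of 70.0 times the limit. SLC47A1, the cation exporter, had 5.73, 7.08, 10.2, 10.7 and 14.9 and 1141, 1566, 1743 and 2303, a mean of 18.9 times the limit. These 3 were bright in every A498 tumour. BHMT had 19.7, 20.6, 23.4, 38.2 and 47.7 and 696, 727, 1174 and 1543, a mean of 11.6 times the limit. SLC16A9 had 10.4, 14.2, 16.2, 23.7 and 62.6 and 528, 699, 777 and 1055, a mean of 8.55 times the limit. GLYAT had 10.4, 22.1, 50.1, 56.0 and 77.8 and 525, 552, 645 and 877, a mean of 7.27 times the limit. The A498 mean was 3.29 times the limit for LRP2, 2.79 for PCK1 and 1.11 for DIO1.

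The other members higher in A498 were KHK (3.44), SLC17A3 (3.43), GATM (3.33), PRODH2 (3.16), ALDH8A1 (3.13), SLC1A1 (3.07), PAX2 (1.59), CLDN2 (1.40), SLC2A9 (0.76), SLC4A4 (0.70) and CUBN (0.69). SLC2A9 was not called with the mean of its probe sets (0.08, adjusted p = 0.793). CUBN had an outlying untreated A498 replicate 1, and was not called without it or without untreated replicate 1, 3 or 4 of 786-O (adjusted p up to 0.278). Members lower in A498 were SLC13A3, a dicarboxylate carrier (-1.73), MME (-1.48), ASS1 (-1.31), PCK2 (-0.67), PAX8 (-0.59) and MIOX (-0.56). MIOX was not called without untreated replicate 2 or 4 of 786-O or untreated replicate 1 or 2 of A498 (adjusted p up to 0.138). Against the untreated 786-O tumours of the sorafenib arm MIOX was at -0.19 (adjusted p = 0.462), and against those of both arms at -0.38 (adjusted p = 0.0924). The brush border peptidases ANPEP and MME thus ran in opposite directions. The 8 others were not called between the lines, among them PDZK1 (-0.10 ± 0.32), AQP1 (0.33 ± 0.46), HAVCR1 (-0.67 ± 0.29, adjusted p = 0.0522) and SLC17A1 (0.44 ± 0.28).

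**Figure D4:**
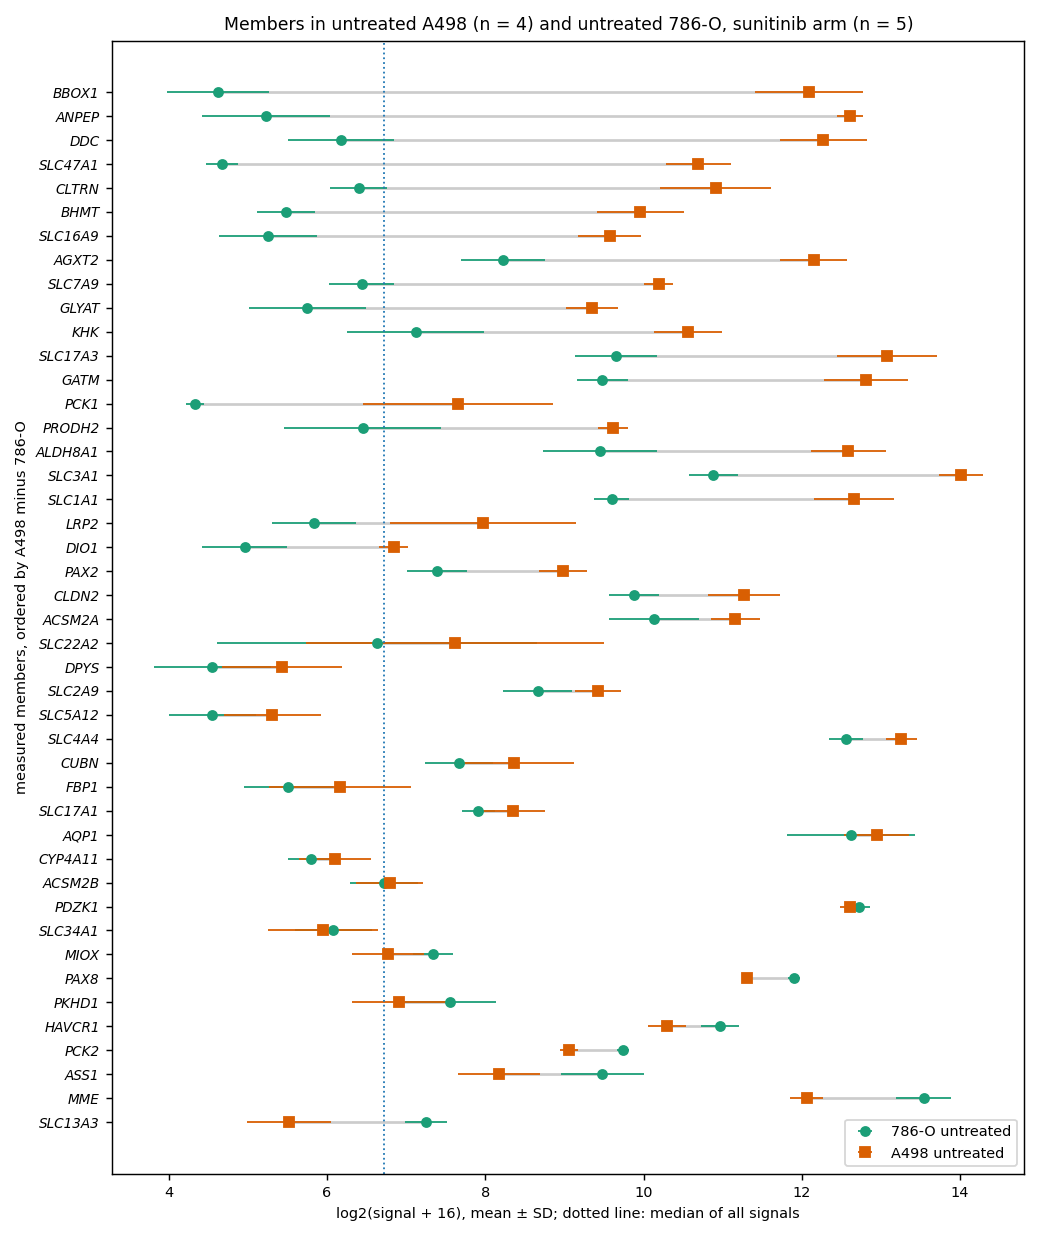
Mean ± SD of log2(signal + 16) of the 44 measured members in untreated 786-O tumours of the sunitinib arm (circles, n = 5) and untreated A498 tumours (squares, n = 4), ordered by the difference, with a dotted line at the median of all signals. The top of the plot holds members below the line in 786-O and far above it in A498 (BBOX1, ANPEP, DDC, SLC47A1), and the bottom holds SLC13A3 and MME, which were higher in 786-O.

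A further list of 39 proximal tubule genes that are no members gave 26 tested genes. In 786-O with sorafenib 6 of them were lower and 0 higher, led by SLC6A13, a carrier of GABA and betaine (-1.62 ± 0.33), TINAG, a basement membrane protein of the tubule (-1.16 ± 0.20), and SLC23A1, a vitamin C carrier (-0.94 ± 0.25). With sunitinib 3 were lower and 0 higher, TINAG (-1.87 ± 0.22), SLC6A13 (-1.83 ± 0.35) and HGD of tyrosine breakdown (-1.13 ± 0.22). In A498 4 were lower and 0 higher, led by SLC2A2, the basolateral glucose carrier GLUT2 (-3.16 ± 0.53), HAO2, a hydroxyacid oxidase (-1.51 ± 0.40), and HPD, also of tyrosine breakdown (-1.16 ± 0.29). These and the following counts stand beside shares over all genes tested of 9.18% lower and 5.97% higher with sorafenib in 786-O, 2.84% and 2.22% with sunitinib, 3.4% and 2.93% in A498, and 30.6% and 27.3% between the untreated lines. Medians of the list were -0.23, -0.12 and -0.39 in the 3 arms. Between the untreated lines 14 were higher and 2 lower in A498, led by GPX3, the plasma glutathione peroxidase made in the tubule (7.80 ± 0.27), HPD (7.12 ± 0.29) and ABCC2, an apical export pump (5.90 ± 0.25).

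Transcription factors of the tubule, 12 tested of 20, went 3 higher and 1 lower with sorafenib in 786-O. MAF (0.62 ± 0.16) and WT1 (0.53 ± 0.16) were among those that rose, and PPARGC1A, a coactivator of mitochondrial genes, fell (-1.31 ± 0.26). With sunitinib limma called none, although 2 were higher and 3 lower at an unadjusted p under 0.05. In A498 WT1 rose (0.93 ± 0.17) and HNF4G, a relative of HNF4A, fell (-0.85 ± 0.25).

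Genes of the other nephron segments, 9 tested of 24, had 0 higher and 2 lower with sorafenib in 786-O (AQP3 -0.81 ± 0.20 and CLDN10 -0.57 ± 0.19), 0 and 1 with sunitinib (CLDN10 -0.89 ± 0.20) and 1 and 1 in A498 (SLC26A4 0.74 ± 0.20 and CDH16 -1.61 ± 0.33). Tubule injury genes, 13 tested of 15, had 1 higher and 4 lower with sorafenib in 786-O, led by CCL2 (-1.39 ± 0.29), VCAM1 (-1.11 ± 0.18) and TIMP1, the one that rose (0.73 ± 0.08). With sunitinib 0 were higher and 2 lower (VCAM1 -1.21 ± 0.19 and CDH6 -0.58 ± 0.14), and in A498 none was called, with 3 higher and 1 lower at an unadjusted p under 0.05. Liver cell genes, which share enzymes with the tubule, had 4 tested of 8, and SERPINA1 rose with sorafenib in 786-O (0.82 ± 0.20) while F2 rose with sunitinib (0.75 ± 0.19).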

How the data were processed

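The 28 tumours were grouped by line, arm and treatment from their labels. The deposited table held 1 linear intensity per probe set (54675), and RMA and MAS5 both appear in the submitters' processing notes, with no role given. Per the deposited values themselves, arrays shared a 2% trimmed mean of 500.06 to 500.07 and ran from 0.0875 to 64034.6, and no detection calls were used here. Probe sets were named through the platform annotation updated by Entrez identifier (41037) or symbol (54). Of all probe sets 41091 had 1 symbol, 1801 several, 11721 none and 62 were controls. Each gene took its single-symbol probe set of highest mean.

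From these values log2(signal + 16) was computed, genes above the median signal on at least 4 arrays were kept (13808 of 19775), and limma 3.58.1 in R 4.3.3 (lmFit, eBayes) fitted 6 group means over all 28 arrays, with Benjamini-Hochberg adjustment over all genes tested. For other probe sets of a member, p-values were adjusted over all probe sets. The fit was tested on simulated data. Figures and counts were made in Python 3.11.15 with pandas 2.3.3 and matplotlib 3.10.9. All arrays of an arm carry the same number in their titles, and scan days were not used.

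The members, gene lists and tests were chosen with earlier results of these data known. Values by tumour are given for called members, at most the 10 of largest difference in a comparison, and for PAX8 and PAX2 in every group, while HNF4A had no probe set to give. Of the other lists only called genes are named, at most 3 per list and comparison. The number of arrays limits the precision. Alternatives were other pseudocounts, filters, probe set rules, scalings, array weights, fits to the compared arrays alone, another 786-O control group, and leaving out each tumour.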

Additional observations from a re-analysis of the deposited data

Results flagged for a closer look

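Among 234 sets of values (39 tested members in 6 groups), 9 had a tumour whose gap to the others passed Dixon's 95% limit, where chance gives about 1 in 20. CUBN, or cubilin, was at 705 in untreated A498 replicate 1, next to 252 in the tumour nearest to it, and ACSM2B was at 154 in the same tumour, next to 83.8. PAX2 was at 38.5 in resistant replicate 4 of the sunitinib arm, the others starting at 149. ASS1, the argininosuccinate synthase, was at 1704 in untreated replicate 1 of the 786-O sorafenib arm, next to 654. The other 5 all lay under the median of all signals. SLC16A9 was at 9.95 in untreated replicate 2 of the 786-O sorafenib arm, next to 63.2, and PCK1 at 52.7 in untreated replicate 4 of that arm, next to 11.2. BBOX1 was at 37.8 in untreated replicate 1 of the sunitinib arm, next to 6.42, and at 3.97 in resistant replicate 1, next to 51.7. KHK was at 7.37 in resistant replicate 1 of the sunitinib arm, next to 88.2.

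The sorafenib difference was tested between the lines in all 39 members, and 5 passed by limma. In A498 minus 786-O the values were 2.55 for ACSM2A (adjusted p = 0.028), 1.35 for SLC3A1 (adjusted p = 0.0227), 1.22 for GATM (adjusted p = 0.0216), -1.93 for HAVCR1 (adjusted p = 0.00609) and -1.86 for GLYAT (adjusted p = 0.0114).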

How the results depend on the processing

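Some called members kept their call under every alternative that tested them, leaving out each tumour included. These were 7 of 16 with sorafenib in 786-O, 6 of 10 with sunitinib and 6 of 11 in A498. They were 28 of 31 between the untreated lines and 2 of 5 in the line difference. A member that the filter or probe set rule of an alternative left out was not counted as losing its call there. The single call higher in A498 (PCK2) gave a count of 0 with a pseudocount of 64, no filter, no _x, _s or _a probe sets, quantile scaling, median centring or the compared arrays alone. The single call higher in 786-O with sorafenib (SLC2A9) gave 0 with no filter, with the compared arrays alone or without both arrays of highest ACTB difference. With the mean of all probe sets SLC2A9 was not called (0.158, adjusted p = 0.713), and the count stayed at 1 through MME. In the line difference of the sorafenib response, members lower in A498 numbered 4 with a pseudocount of 64 and 5 with median centring, and members higher numbered 1 with the mean of all probe sets or the compared arrays alone. Between the untreated lines 3 members were lower without _x, _s and _a probe sets, a setting in which MIOX, MME and ASS1 were not tested. SLC3A1 turned to -0.062 (adjusted p = 0.969) in the line difference without those probe sets. Apart from members that a setting left out or read by another probe set, the cause of these changes was not tested. Leaving out 1 tumour gave 11 to 15 members lower and 0 to 1 higher with sorafenib in 786-O, 6 to 10 and 0 to 1 with sunitinib, and 6 to 14 and 0 to 1 in A498. It gave 24 to 26 higher and 5 to 7 lower between the untreated lines, 2 to 4 higher and 2 to 3 lower in the line difference, and 2 to 7 lower in all 3 arms. No paired analysis was possible because the labels give no replicate numbers that tie tumours of different groups. Signals under the median of all signals lie near background, so differences of dim members depend on the constant added.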
